A study of Homo sapiens with 8 samples.

Results

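HERVH element deleted cells were compared with WT cells by RNA-seq to ask which genes changed after loss of a single endogenous retroviral element on chromosome 2. The comparison used 4 of the 8 libraries of the series, 2 HERVH element deleted and 2 WT, chosen by their sample titles, and all 57773 genes with a count. All cells were of H9, an established line of human embryonic stem cells (hESCs), cultured in mTesR1 medium. The WT libraries came from untreated cells labelled wild type with an HA tag on CHD7 (CHD7-HA), and the HERVH element deleted libraries came from untreated cells labelled with a deletion of the HERVH element on Chr2. The other 4 libraries, 2 of CHD7 knockout cells (CHD7 -/-) and 2 of wild type (CHD7-HA) cells treated with LNA-GapmeRs against HERVH (HERVH knockdown), entered the fit to estimate the spread between replicates. The deleted cells were grown from homozygous clones, and the labels do not tie a library to a clone or say that replicates were separate cultures, so p-values measure the spread between these libraries, which may be technical. Clonal selection and the deletion itself cannot be told apart in this design, and the labels do not say whether the deleted cells carry the HA tag.

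HERVH is a family of endogenous retroviruses, remnants of germline infections that remain in many copies in the human genome. Copies flanked by LTR7 long terminal repeats are transcribed in hESCs, where the repeats can act as promoters or enhancers of genes nearby and the RNA stays largely in the nucleus. CHD7 is a chromatin remodeler that binds enhancers.

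The deletion was made with a pair of CRISPR-Cas9 guides in unique sequence on either side of the element. The protospacers are shown because they fix the ends of the lost interval, in lower case with the PAM, which Cas9 needs beside its target, in capitals. Both lie on the plus strand of GRCh37, at chr2:210163938-210163960 for the 5′ guide and chr2:210169902-210169924 for the 3′ guide.
5′ guide: ttagaagtataccgaactcaGGG
3′ guide: cagcatccaacgatcacagcAGG
Cuts 3 bases before each PAM would remove chr2:210163955-210169918, or 5964 bp. Each guide had 1 perfect site in the genome, and a search that allowed 3 mismatches and required an NGG PAM found 8 further sites for the 5′ guide and 3 for the 3′ guide. Of these 11 sites, 7 were on chromosomes without a gene called below, and on chromosomes 5 and X the nearest called gene lay at least 31.2 Mb from a site.

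Counts were normalized as CPM, a scaling to library size, and 23474 genes that passed edgeR's expression filter were tested with its quasi-likelihood test, with Benjamini-Hochberg adjustment over all of them (FDR). Over 12704 genes, the median SD between replicates was largest in HERVH knockdown libraries, at 0.254 log2 CPM. It was 0.111 in CHD7 knockout, 0.125 in WT and 0.0821 in deleted libraries. At an FDR below 0.01 and at least 2-fold, 7 genes were lower in deleted cells (0.0298% of genes tested) and 0 were higher (0%). At an FDR below 0.05 and at least 2-fold, 17 were lower (0.0724%) and 0 were higher (0%). At an unadjusted p below 0.05 and any fold, 2.63% of genes tested passed. In this fit, that is below the share of 0.05 that would pass with no change in any gene. The comparison with 0.05 depended on which libraries were fitted. Without the HERVH knockdown libraries, 1101 lower and 592 higher of 23276 genes tested passed. With only the 4 WT and deleted libraries, 993 lower and 711 higher of 22073 passed. Both exceed a share of 0.05. In the main fit, those that passed were 407 lower and 210 higher genes. Without WT replicate 1 that balance turned, with 149 lower and 229 higher. At an FDR below 0.01, the likelihood-ratio test of edgeR called 1 gene higher, and DESeq2 called 0. The median log2 fold change of all genes tested was -0.02.

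All 17 genes changed in both replicates, in that both deleted libraries lay below both WT libraries. So did 4771 of all 23474 genes tested. In each of the 17, both deleted libraries also lay below all 6 other libraries. Among all genes tested, 1725 (7.35%) lay beyond all 6 in either direction. The 17 were picked by FDR in this same comparison, so their lying apart is no separate evidence. They comprised 13 protein-coding genes, 2 long noncoding RNAs (lncRNAs) and 2 pseudogenes, on 10 chromosomes. SLITRK2 and SLITRK4 belong to the same small family.

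The 7 genes at an FDR below 0.01 were LINC00654, an lncRNA on chromosome 20, SEC14L4, a lipid-binding SEC14-like protein, AGBL4, a carboxypeptidase that removes glutamates from tubulin, SYT11, a synaptotagmin of vesicle trafficking, ENSG00000260834, an lncRNA on chromosome 16, CDYL2, a chromodomain protein, and HSPA1A, a heat-inducible HSP70 chaperone. Their log2 fold changes ran from -5.44 for LINC00654 to -3.41 for HSPA1A. SYT11, for example, had 488 and 504 counts in WT against 18 and 29 after the deletion. With a library left out, AGBL4 reached an FDR of 0.17, SEC14L4 0.0541 and CDYL2 0.0104, each without deleted replicate 1, and AGBL4 and SEC14L4 lost the 0.01 threshold without other libraries as well. In bulk RNA, a lower count from fewer expressing cells and one from less RNA per cell cannot be told apart.

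Relatives of the 5 protein-coding genes among these 7, in families drawn up after the values were seen, did not pass the test. HSPA1A gave 421 and 340 counts in WT libraries, 45 and 25 in deleted ones, while HSPA1B, its near-identical copy, had 653 and 696 against 676 and 577, and reads shared by the copies make both uncertain. Of the 8 tested HSP70 genes HSPA1A was the 1 called, and the median log2 fold change was 0.04. SEC14L4 was counted 40 and 52 times in WT, 1 and 1 times after the deletion, and the other 4 tested SEC14L genes ran from -0.84 for SEC14L6, its neighbour on chromosome 22, to 0.00 for SEC14L2. AGBL4 had 34 and 36 counts against 1 and 1, and the related AGBL2, AGBL3, AGBL5 and AGTPBP1 lay between -0.24 and 0.10. CDYL2 had 141 and 136 counts against 9 and 11, and CDYL had a log2 fold change of -0.02.

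**Figure D1:**
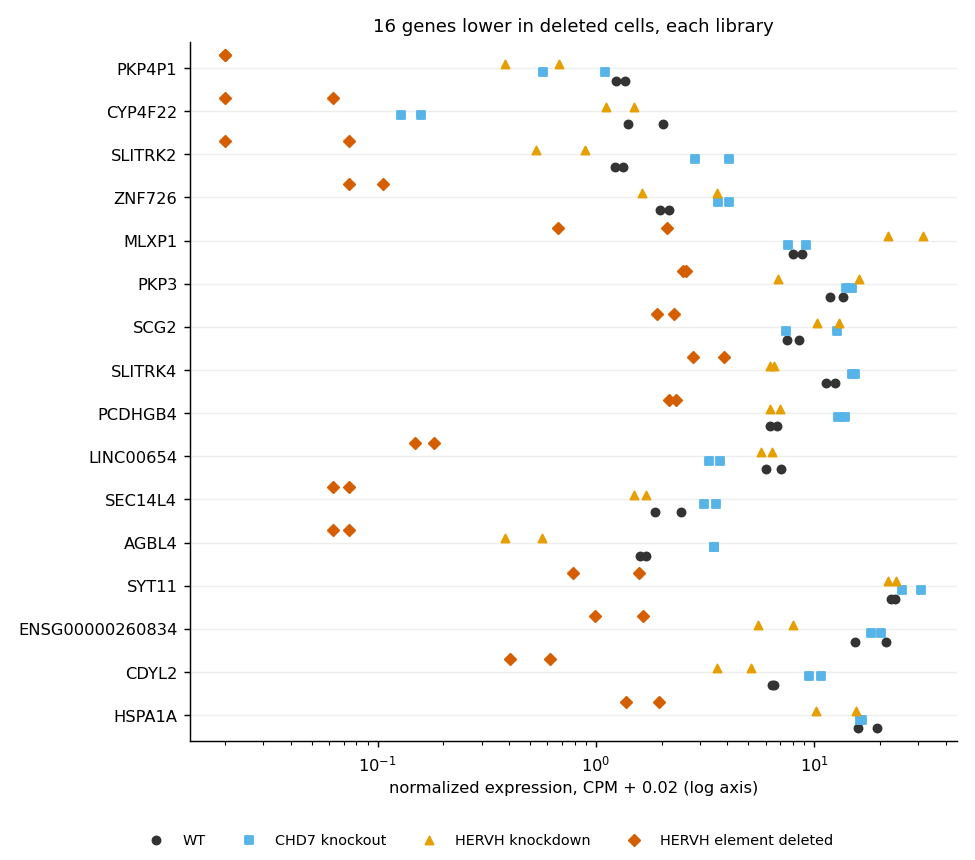
Normalized expression of 16 of the 17 genes in each of the 8 libraries, as CPM plus 0.02 on a log axis, with 1 row per gene and 1 point per library. The upper 9 rows are genes at an FDR between 0.01 and 0.05 and the lower 7 rows those below 0.01; in every row both HERVH element deleted libraries (diamonds) lie left of all other libraries.

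The 10 genes between the FDR thresholds of 0.01 and 0.05 included 4 with at most 3 counts left in the deleted libraries together (PKP4P1, CYP4F22, SLITRK2 and ZNF726) and 6 that kept part of their expression. With 1 of the 4 compared libraries left out, the FDR of these 10 genes ranged from 0.0023 to 1. MLXP1 stayed below 0.05 without deleted replicate 1 and ZNF726 without WT replicate 1, and the other 8 exceeded an FDR of 0.05 whichever WT or deleted replicate was left out. Each of the 10 remained lower in every one of the 12 alternative fits.

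The SLITRK genes encode transmembrane proteins with leucine-rich repeats that organize synapses in neurons. SLITRK4 (X, 142710595 to 142723916, minus strand) had 269 and 242 counts in WT against 65 and 71 after the deletion. Its level fell from 11.9 ± 0.78 to 3.3 ± 0.744 CPM (SD, n = 2 each; log2 fold change -1.85, SE 0.25, FDR = 0.0105, edgeR). SLITRK2 (X, 144899347 to 144911374, plus strand) gave 26 and 28 counts in WT libraries, 0 and 1 in deleted ones, a ratio of 52.6 with an exact 95% interval from 9.05 to 2116 that covers counting error only (FDR = 0.031, edgeR). The 2 genes lie 2.18 Mb apart with 0 tested genes between them, and neither has a tested neighbour within 500 kb. In the CHD7 knockout libraries SLITRK2 had 61 and 75 counts and SLITRK4 had 321 and 287, and in the HERVH knockdown libraries 16 and 7 and 114 and 90. The 4 other SLITRK genes, SLITRK1, SLITRK3, SLITRK5 and SLITRK6, lie on chromosomes 3 and 13 and had log2 fold changes from -0.44 to -0.05, and none passed the test.

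PKP3, a plakophilin of the desmosomal plaque that joins epithelial cells, was counted 256 and 289 times in WT, 60 and 46 times after the deletion. It fell 5.01-fold, from 12.7 ± 1.2 to 2.52 ± 0.0587 CPM (SD, n = 2 each; log2 fold change -2.32, SE 0.35, FDR = 0.0229, edgeR). None of its relatives passed the test. PKP2 (log2 fold change -0.20), PKP4 (0.01), the desmosomal plakoglobin gene JUP (-0.28) and the catenin genes CTNNB1 (-0.05), CTNND1 (-0.06) and CTNND2 (-0.09) all had an FDR of 1. Over the 9 tested plakophilins and armadillo relatives the median was -0.19, and PKP3 was the 1 member called. PKP1 had 12 and 11 counts in WT against 5 and 5 after the deletion.

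SCG2 encodes secretogranin II, a granin stored in the dense-core vesicles of neurons and endocrine cells. It gave 185 and 160 counts in WT libraries, 53 and 35 in deleted ones, a fall of 3.83-fold (log2 fold change -1.94, SE 0.31, FDR = 0.0396, edgeR). Of the 7 tested granins and related vesicle proteins it was the 1 called, and the other 6 had log2 fold changes from -0.16 for VGF to 0.56 for CHGB, each at an FDR of 1. MLXP1, a processed pseudogene, was counted 172 and 188 times in WT, 49 and 12 times after the deletion, or 2.09 and 0.647 CPM in the deleted libraries, which were thus unequal. MLXP1 fell by 2.56 on the log2 scale (SE 0.38, FDR = 0.0229, edgeR). MLXP1 lies within AP1S3 on the opposite strand, and as the strand setting of the counting is not given, reads from the 2 strands could not be told apart.

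CYP4F22, a fatty acid hydroxylase of the skin barrier, gave 30 and 43 counts in WT libraries, 1 and 0 in deleted ones, a ratio of 71.1 (exact 95% interval 12.4 to 2847, FDR = 0.0229, edgeR). It had 3 and 2 counts in CHD7 knockout cells and 27 and 15 in HERVH knockdown cells. None of the 5 other CYP4F genes looked at had more than 3 counts in a library.

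ZNF726, a zinc finger gene in the cluster of 19p12, was counted 42 and 46 times in WT, 2 and 1 times after the deletion (ratio 28.6, exact 95% interval 9.46 to 141, FDR = 0.0108, edgeR). The other tested zinc finger genes of the cluster, ZNF91, ZNF254, ZNF724, ZNF730 and ZNF675, had log2 fold changes from -0.01 to 0.09, and none passed the test. PCDHGB4, a gamma protocadherin of cell adhesion, had 146 and 134 counts in WT against 50 and 43 after the deletion, a fall of 2.92-fold (log2 fold change -1.54, SE 0.26, FDR = 0.0486, edgeR). Its annotated span overlaps those of other gamma protocadherin genes, so reads from shared exons are ambiguous between them. Of the 51 clustered protocadherins tested, it was the 1 called, and 32 had a log2 fold change below 0 and 19 above. Of all 23474 genes tested, 12467 were below 0 and 11003 above. The median of the 51 was -0.10, or -0.21 without deleted replicate 1. PCDHB15 gave 109 and 106 counts in WT libraries, 49 and 52 in deleted ones, below all other libraries, at an FDR of 1. PCDHGA11 (log2 fold change -0.68) and PCDHAC2 (-0.54) also had an unadjusted p under 0.05.

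PKP4P1, a pseudogene of PKP4, is the called gene nearest to the deletion. It was counted 29 and 26 times in WT, 0 and 0 times after the deletion, at least 7.89-fold lower against a floor of 3 counts in a library (FDR = 0.0486, edgeR). PKP4 itself, on the same chromosome, had 3471 and 3664 counts in WT against 3913 and 3109 after the deletion. Around the deletion, 4 tested genes lay within 250 kb, PKP4P1, CRYGFP and HSPA8P6 to the left and MAP2 to the right. The 3 to the left are pseudogenes and each had an unadjusted p under 0.05. CRYGFP gave 9 and 2 counts in WT libraries, 1 and 0 in deleted ones, and HSPA8P6 had 13 and 22 against 0 and 0. MAP2, 119 kb to the right, was counted 862 and 1003 times in WT, 1013 and 894 times after the deletion. Between 250 kb and 1 Mb, on both sides together, 8 genes were tested and 0 were called, at a median log2 fold change of 0.20. The nearest of the 8 to the left, PTH2R at 445 kb, had 13 and 6 counts in WT against 3 and 1 after the deletion (log2 fold change -2.15). Between 1 and 5 Mb there were 32 genes with a median of 0.06 and 0 called. These 3 pseudogenes had at most 32 counts in any of the 8 libraries, and reads that also match a parent gene make their counts uncertain.

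**Figure D2:**
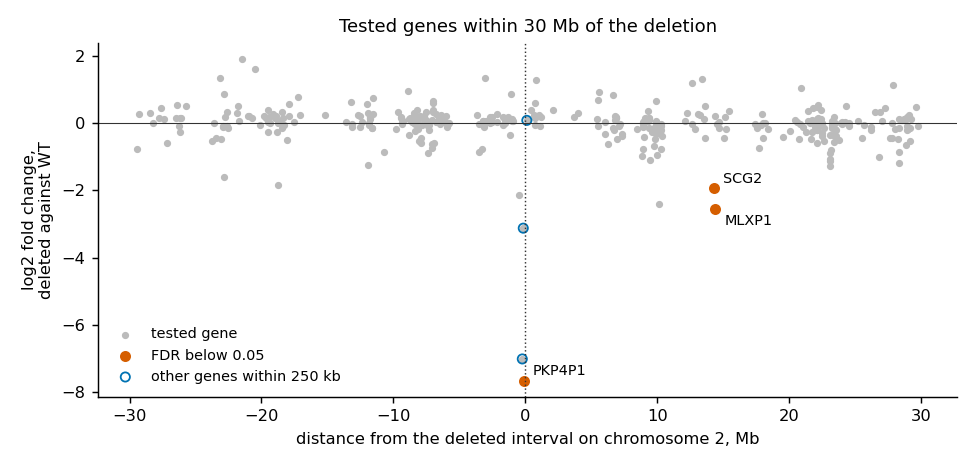
Log2 fold change, deleted against WT, of each tested gene within 30 Mb of the deleted interval on chromosome 2, plotted by its distance from that interval in Mb. The 3 called genes, PKP4P1, SCG2 and MLXP1, are filled in colour and the other genes within 250 kb are ringed; PTH2R, at -2.15, and DES, at -2.41, are the lowest of the other genes and were not called.

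SCG2 and MLXP1 stand beside each other on chromosome 2, 102 kb apart with 0 tested genes between them, and 14.4 Mb beyond PKP4P1. Within 500 kb of SCG2 there were 5 tested genes, at a median log2 fold change of -0.02, and only MLXP1 was called. Of the other 15 genes, none had a called neighbour within 500 kb. HSPA1A had 57 tested neighbours, 1 of them with an unadjusted p under 0.05, and SYT11 had 38, none of them. CDYL2, LINC00654 and ZNF726 also had none. Such neighbours were 1 of 8 for AGBL4, 1 of 13 for CYP4F22, 2 of 25 for SEC14L4 and 2 of 49 for PKP3. They were 3 of 72 for PCDHGB4, 3 of 4 for PKP4P1 and the 1 neighbour of ENSG00000260834. The lowest neighbour of AGBL4 had a log2 fold change of -3.13. Among all genes tested, 2.63% had an unadjusted p under 0.05 (edgeR). Medians per chromosome ran from -0.08 on chromosome 22 to 0.03 on chromosome 13. In 10 Mb bins with at least 20 genes above a mean log2 CPM of 2, 0 of 233 bins had both deleted libraries shifted by more than 0.3 on the log2 scale.

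Copies similar to the deleted element were found by aligning the deleted interval to GRCh37, and 1050 other copies aligned over at least 2000 bases of it. Of the 17 called genes, 1 overlapped such a copy (5.88%), which was ENSG00000260834, and 1 of 17 lay within 50 kb (5.88%), against 4.52% of all genes tested with a position. Of the 22744 tested genes with a position, 250 overlapped a copy (1.1%). Those 250 genes had as median log2 fold change -0.08, with 148 below 0 and 102 above. Among all 23474 genes tested, 12467 were below 0 and 11003 above. Of the 17, the next nearest was PKP4P1, 94.6 kb from a copy, and SYT11 was 7706 kb from one.

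No gene on the higher side passed an FDR of 0.05. With a looser rule of an unadjusted p below 0.05, at least 2-fold and both deleted libraries above both WT libraries, 106 genes were on the higher side (0.452% of genes tested), against 198 on the lower side (0.843%). Without WT replicate 1 the same rule gave 113 on the higher and 112 on the lower side, and without WT replicate 2 it gave 200 and 277. On the higher side 19 were protein-coding (17.9%), and 7 had no position in the annotation. Pseudogenes were 36 (34%, against 12.9% of all genes tested), lncRNAs 31 (29.2% against 16.4%) and small or other RNAs 13 (12.3% against 4.26%). The same kinds made up 13.6%, 21.7% and 3.03% of the lower side. On the lower side 110 of 198 were protein-coding (55.6%), against 63.3% of all genes tested. The genes were low in expression, with a median of 0.716 CPM over all 8 libraries on the higher side and 1.01 on the lower, against 6.01 for all genes tested. The genes named next were chosen after their values were seen, as the protein-coding genes with the lowest unadjusted p.

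LGI1, a secreted neuronal protein with leucine-rich repeats, had the lowest p among the protein-coding genes of the higher side. It had 6 and 3 counts in WT against 41 and 32 after the deletion (log2 fold change 3.02, SE 0.67, FDR = 0.474, edgeR). Its FDR was 0.0019 by edgeR's likelihood-ratio test and 0.261 by DESeq2. In CHD7 knockout cells it had 1 and 0 counts, and in HERVH knockdown cells 9 and 11. The related LGI4 was counted 224 and 193 times in WT, 117 and 83 times after the deletion, and LGI2 had a log2 fold change of 0.01, both at an FDR of 1.

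SIX3 and LHX2, homeobox genes of the early forebrain, were above all 6 other libraries as LGI1 was. SIX3 gave 18 and 17 counts in WT libraries, 57 and 47 in deleted ones (log2 fold change 1.60, SE 0.53, FDR = 1, edgeR), and 0 and 0 in CHD7 knockout cells. LHX2 was counted 15 and 26 times in WT, 64 and 61 times after the deletion (log2 fold change 1.65, SE 0.58, FDR = 1, edgeR), and 4 and 0 in CHD7 knockout cells. ZEB2, a zinc finger transcription factor, had 65 and 86 counts in WT against 147 and 158 after the deletion (log2 fold change 1.07, SE 0.33, FDR = 1, edgeR). The CHD7 knockout libraries held 8 and 10 counts of ZEB2. HESX1, a homeobox gene of the anterior brain and pituitary, had 86 and 167 counts in WT against 233 and 231 after the deletion at less than 2-fold. Of 9 tested anterior forebrain regulators, a list drawn up after these values were seen, all had a log2 fold change above 0. Among all 23474 genes tested, 11003 were above 0. As the list was drawn up with values known, its shared direction is no separate evidence. Of 14 tested genes of a neural lineage list, 7 were below 0 and 7 above, with a median of -0.06. The 9 regulators had a median of 0.78, and 3 had an unadjusted p under 0.05. OTX2, the most highly expressed of them per length, gave 1622 and 1660 counts in WT libraries, 2104 and 1575 in deleted ones (log2 fold change 0.20). RAX was counted 9 and 3 times in WT, 41 and 6 times after the deletion, so a single library carried its value.

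**Figure D3:**
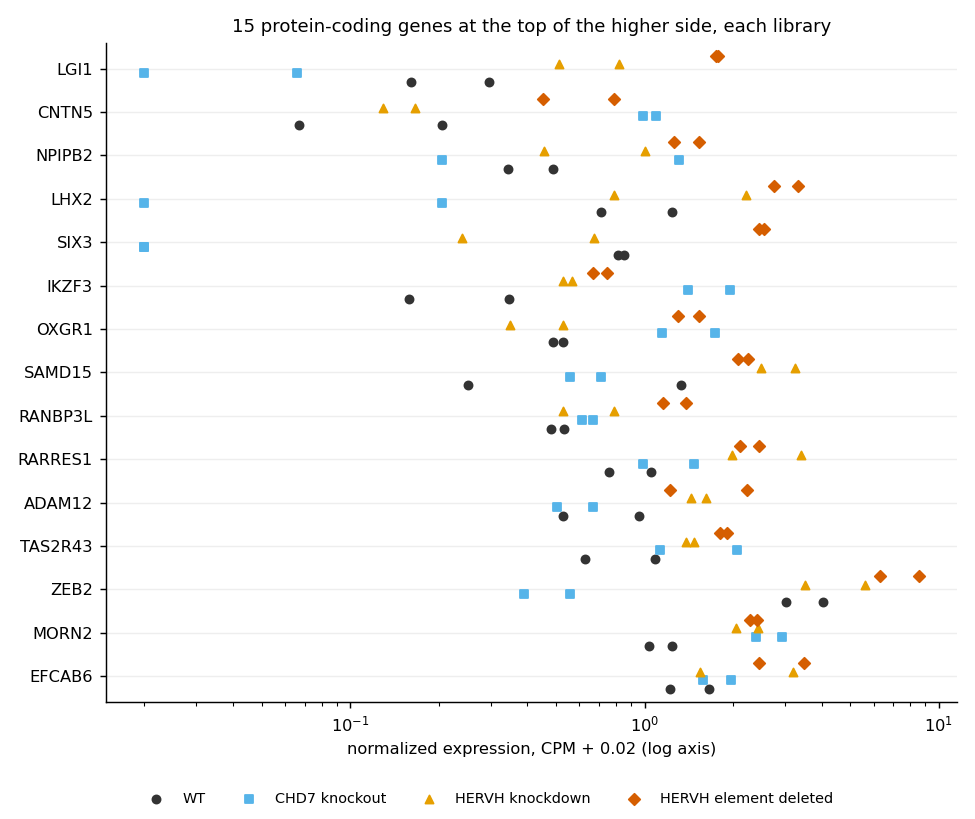
Normalized expression of the 15 protein-coding genes with the lowest unadjusted p on the higher side in each of the 8 libraries, as CPM plus 0.02 on a log axis, with 1 row per gene and 1 point per library. In every row both HERVH element deleted libraries (diamonds) lie right of both WT libraries (circles), and none of these genes passed an FDR of 0.05.

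Of the other genes on the higher side, RARRES1, induced by retinoids, had 16 and 22 counts in WT against 49 and 45 after the deletion. OXGR1, a receptor for oxoglutarate, gave 11 and 10 counts in WT libraries, 30 and 28 in deleted ones, and ADAM12, a metalloprotease, had 11 and 20 against 28 and 41. CNTN5, a neural contactin, was counted 4 and 1 times in WT, 18 and 8 times after the deletion. IKZF3, a lymphoid transcription factor, had 3 and 7 against 17 and 12. Of the 15 genes plotted, 5 lay above all 6 other libraries, and these were LGI1, SIX3, LHX2, ZEB2 and RANBP3L. Of all 106 genes on the higher side, 35 did (33%), so this does not set the 5 genes apart. Among all genes tested, 7.35% lay beyond all 6 in either direction.

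Below the called genes, the lower side continued with PWWP3B, C3, ZNF404 and SYT5, none of which passed an FDR of 0.05. PWWP3B, a PWWP domain gene on the X chromosome, had 13 and 20 counts in WT against 0 and 0 after the deletion, at least 4.74-fold lower (FDR = 0.112, edgeR), and 92 and 155 in CHD7 knockout cells. C3, the central complement component, gave 22 and 21 counts in WT libraries, 2 and 1 in deleted ones (ratio 14, exact 95% interval 4.47 to 70.4, FDR = 0.0942, edgeR), and the other 9 tested complement genes had an FDR of 1. SYT5 was counted 102 and 48 times in WT, 13 and 12 times after the deletion, but 11 and 15 in CHD7 knockout cells. Of 16 tested synaptotagmins, SYT11 was called and the median was -0.04. The axon guidance gene NTN1 had 174 and 120 counts in WT against 61 and 34 after the deletion (log2 fold change -1.61, SE 0.37, FDR = 0.542, edgeR), and an FDR of 0.0437 by DESeq2.

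In the other 2 groups, which share the WT libraries with this comparison, each of the 17 genes was above both deleted libraries. MLXP1 had 573 and 298 counts in HERVH knockdown and 164 and 170 in CHD7 knockout libraries. In the same order, PCDHGB4 had 114 and 96 against 279 and 256.

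Of the pluripotency genes, POU5F1 had a log2 fold change of -0.09 (0.04 without WT replicate 1), SOX2 0.12 and NANOG 0.04, and over 26 tested core and primed pluripotency genes the median was -0.03 with 0 called. CHD7 (0.11) and EP300 (0.11), which encodes the acetyltransferase p300, also had an FDR of 1, and PAX6 gave 38 and 36 counts in WT libraries, 75 and 42 in deleted ones. Of 21 tested p53 target genes, 18 had a log2 fold change below 0 with a median of -0.44, and 8 had an unadjusted p under 0.05, though none was called. Among all 23474 genes tested, 12467 were below 0, and 407 were lower at an unadjusted p under 0.05 (edgeR). CDKN1A, the p53-induced cell cycle inhibitor, was counted 1031 and 452 times in WT, 477 and 264 times after the deletion. In 19 of the 21 genes WT replicate 1 was above WT replicate 2, and in 17 deleted replicate 1 was above deleted replicate 2. Without WT replicate 1 the median was -0.18 and without WT replicate 2 it was -0.63. Leaving out 1 WT replicate thus also mixes in this difference between replicate numbers. Of 18 tested immediate early genes, 3 had an unadjusted p under 0.05, with a median of -0.36 that ran from -0.52 without WT replicate 2 to -0.16 without deleted replicate 2. FOS had 1594 and 1039 counts in WT against 837 and 265 after the deletion, so its replicates differed within both groups. The 7 tested naive pluripotency genes had a median of -0.37, or -0.58 without deleted replicate 1, and of these TFAP2C gave 141 and 89 counts in WT libraries, 60 and 53 in deleted ones, and KLF4 had 120 and 60 against 58 and 33, both at an FDR of 1.

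**Figure D4:**
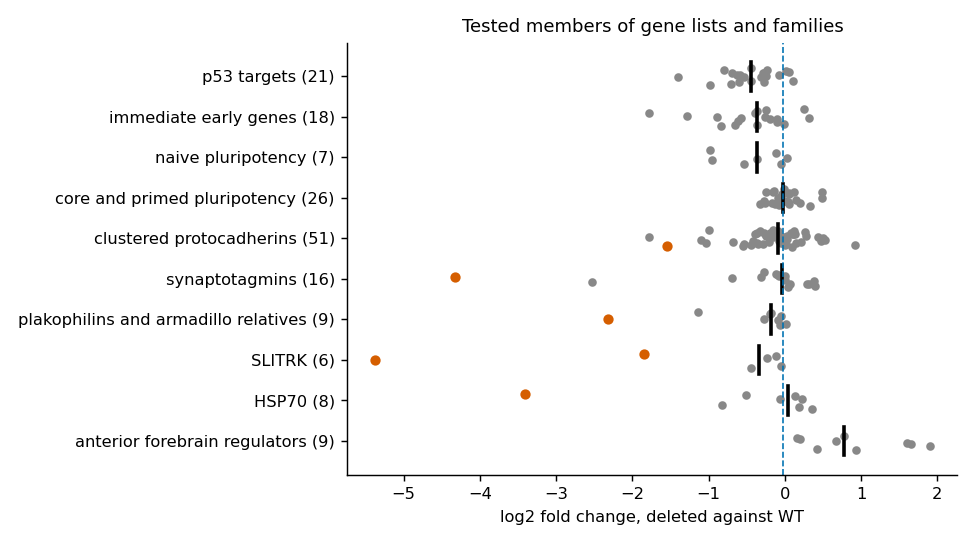
Log2 fold change, deleted against WT, of the tested members of 10 gene lists and families, with the number tested in brackets, the median of each as a black bar and the median of all genes tested as a dashed line. Coloured points are members at an FDR below 0.05, and each marked family has 1 such member, apart from SLITRK with 2; SYT5, at -2.53, is the lowest member that was not called among the synaptotagmins.

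Markers of other cell types were counted in the same way. Of the neural list 14 genes were tested with a median of -0.06, and 9 mesoderm and endoderm genes had a median of -0.30, 3 trophoblast and amnion genes -0.06 and 5 fibroblast genes -0.28, with 0 called in each. These small lists moved with single libraries, the neural median to 0.12 without WT replicate 1, the mesoderm and endoderm median between -0.11 and -0.62 and the fibroblast median between -0.17 and -0.49 without WT replicates 1 and 2 in turn, and the trophoblast and amnion median between -0.21 without deleted replicate 1 and 0.01 without WT replicate 2. None of the 39 HOX genes had enough counts to be tested. The 18 tested genes of the culture amplicon at 20q11.21 had a median of -0.02, and 20 imprinted genes -0.07, 9 germline genes 0.44, 9 CHD remodelers 0.06 and 15 enhancer coactivators 0.09, also with 0 called. The germline median was 0 without deleted replicate 2 and 0.59 without WT replicate 2. The libraries held from 18219215 to 23156445 counts on genes in WT and deleted cells, in which 3 counts correspond to 0.128 to 0.162 CPM. The share of assessed reads outside annotated genes was 39.1% and 39.4% in deleted and 35.9% and 37.5% in WT libraries.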

How the data were processed

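Libraries were rRNA-depleted. Per the labels, reads were mapped to hg19 with STAR and counted per Ensembl gene with HTSeq, whose versions are not given in the sources used here. The deposited values are read counts, without normalization. Summary rows were left out. The analysis used R 4.3.3, edgeR 4.0.16 and DESeq2 1.42.0. Libraries were scaled by TMM, genes kept by filterByExpr, and all 8 libraries fitted with group as factor. Each SE is the size of the log2 fold change divided by the square root of the quasi-likelihood F statistic. It is thus derived from the test and is not a separate measure of spread. DEGs needed an FDR below 0.01 and 2-fold. The main text names all of them and genes at an FDR below 0.05 up to 15 per direction, that lay apart in both replicates, with SYT11, PKP4P1, LINC00654, CHD7, EP300, POU5F1, SOX2, NANOG and PAX6, except 1 called gene that is not reported here. PCDHGB4, other genes and the families were chosen after their values were seen. The members and gene lists were chosen with earlier results of these data known. Gene positions came from a GENCODE annotation on GRCh37, which placed 55538 of 57773 genes. Copies of the element were found with blastn 2.17.0, joined across gaps of 3 kb. The procedure was tested on simulated data. Alternatives were RLE scaling, DESeq2, the likelihood-ratio test, fewer libraries, other filters, the replicate block and each replicate left out. 0 sample columns were unused.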

Additional observations from a re-analysis of the deposited data

How the results depend on the processing

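The count of genes lower in deleted cells at an FDR below 0.01 was 7, and other settings gave 14 with DESeq2, 23 with the likelihood-ratio test, 16 without the HERVH knockdown libraries, 29 with no filter beyond 1 count and 17 at an FDR below 0.05. With RLE scaling it was 9, with the 4 compared libraries alone 6, and with at least 1 CPM in 2 libraries 6. Without 1 WT or deleted replicate it ranged from 5 to 6. The count of genes higher was 0, and became 1 with the likelihood-ratio test (LGI1) and 1 with no filter beyond 1 count (ENSG00000226958), and it was 0 without each replicate in turn. With the replicate block the counts were 6 lower and 0 higher, AGBL4 was at an FDR of 0.0138, PKP4P1 at 0.0742 and PCDHGB4 at 0.0727, and the block changed no other call of the 17 genes. As a check of the pairing, WT and deleted libraries of equal number deviated from their groups with a correlation of 0.427 over 12704 genes, and with 2 pairs the samples share only a number. Of 669 values of single genes under alternatives, 62 lost the call and 28 gained it, and POU5F1, which was not called, changed sign from -0.09 to 0.04 without WT replicate 1. By the looser rule of an unadjusted p below 0.05 and 2-fold, 198 lower and 106 higher became 112 and 113 without WT replicate 1, 277 and 200 without WT replicate 2, 123 and 58 with at least 1 CPM in 2 libraries, 137 and 68 with DESeq2, 281 and 170 with the likelihood-ratio test, and 346 and 225 with no filter beyond 1 count. Without the HERVH knockdown libraries, 1101 genes were lower and 592 higher at an unadjusted p below 0.05 (edgeR). In that fit 1 gene was called higher at an FDR below 0.05. The cause of these shifts was not tested. Depth limits the genes of few counts most, such as PKP4P1 and SLITRK2.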
